A study of Mus musculus with 4 samples.

Results

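The genes described here are 9 transcription factors of head and trunk mesenchyme, the loose tissue between the epithelia of an embryo. They are the paired-related homeobox genes Prrx1 and Prrx2, the forkhead genes Foxc1 and Foxc2, the homeobox genes Meox1 and Alx1, and the basic helix-loop-helix genes Tcf21, Msc and Tcf15. Members were chosen by name, with earlier results of these data known. Shares over all probe sets are therefore given beside theirs for scale and not as a test. Every probe set annotated to exactly 1 of these symbols was read, which gave 17 of the 45101 probe sets on the array.

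The samples were mouse embryos of strain ARC/s at embryonic day 8.5 with 4 to 5 somites, untreated and with no genetic change named in the labels. Foregut endoderm, from the anterior intestinal portal, was represented by 2 samples. The other 2 samples held head mesoderm and ectoderm mixed with heart mesoderm, written mesoderm/ectoderm here. Each sample pooled 15 to 20 pieces of tissue, and RNA was amplified in 2 rounds before hybridization to 1 array. Replicate 1 of both tissues was dissected by hand and replicate 2 with trypsin and pancreatin, so replicate and dissection cannot be told apart. The separate pools make up the replicates. The p-values of the main tissue comparison, which has no replicate term, measure the spread between pools of a tissue. That spread also holds the difference in dissection. The description of foregut endoderm 2 calls it ectoderm, while its title and tissue label name foregut endoderm, which was used.

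Mesenchyme of the head comes from cranial mesoderm and from neural crest, cells that leave the edge of the neural plate. Foxc1 and Foxc2 act in paraxial and head mesoderm, Tcf15 and Meox1 in the somites, and Tcf21 and Msc in precursors of the jaw muscles. Prrx1, Prrx2 and Alx1 pattern the mesenchyme of the face. None of the 9 is a standard marker of gut epithelium.

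In these bulk samples a lower value can mean fewer cells of a type or less RNA per cell, and the values cannot tell these apart. The values of heart genes did not follow the labels in every respect. Of 15 heart muscle and cardiac progenitor genes, 14 passed the filter on dim signal, a log2 intensity above 5 on at least 2 of the 4 arrays. Their median log2 intensity was 8.46 in foregut endoderm 1, 3.26 in mesoderm/ectoderm 1, 4.58 in foregut endoderm 2 and 12.68 in mesoderm/ectoderm 2. The summed intensity of the list ranged from 1307 to 15244 in foregut endoderm and from 359.0 to 116811 in mesoderm/ectoderm. The lowest sum was thus found in a sample labelled as holding heart mesoderm. The 14 kept foregut endoderm genes followed the labels in both replicates, with median differences of 2.89 and 3.18. Lowest values per array lay between 2.25 and 2.28 on the log2 scale, and a value within 0.1 of its array's lowest is called the floor.

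All 9 members had a probe set off the floor on at least 1 array, but only Prrx1, Prrx2 and Foxc1 passed the filter, with 4 probe sets in all. The other 13 member probe sets did not pass, and 5 of these were at the floor on every array. Of the 12 probe sets off the floor somewhere, 9 had their highest value in foregut endoderm 1, 1 in mesoderm/ectoderm 1, 2 in mesoderm/ectoderm 2 and 0 in foregut endoderm 2. Among all probe sets off the floor on some array, 29.6% were highest in foregut endoderm 1. Meox1, Msc and a Tcf21 probe set (1458887_at) left the floor only there, so their place was fixed by the way they were counted. The 29.6% also holds probe sets of this kind. Prrx1 and Foxc1 each count with 2 probe sets among the 9. By each gene's brightest probe set, 9 members were off the floor in foregut endoderm 1, 6 in mesoderm/ectoderm 1, 5 in foregut endoderm 2 and 7 in mesoderm/ectoderm 2. Over all probe sets, 41.4%, 42.6%, 43.5% and 44.8% were at the floor on these arrays, in the same order. That share counts every probe set, whereas taking the brightest of a gene raises the member counts. The member counts include near-floor values. Tcf15 lay within 0.5 of the lowest value on 3 arrays, and Tcf21 was 0.13 above it in foregut endoderm 2.

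**Figure D1:**
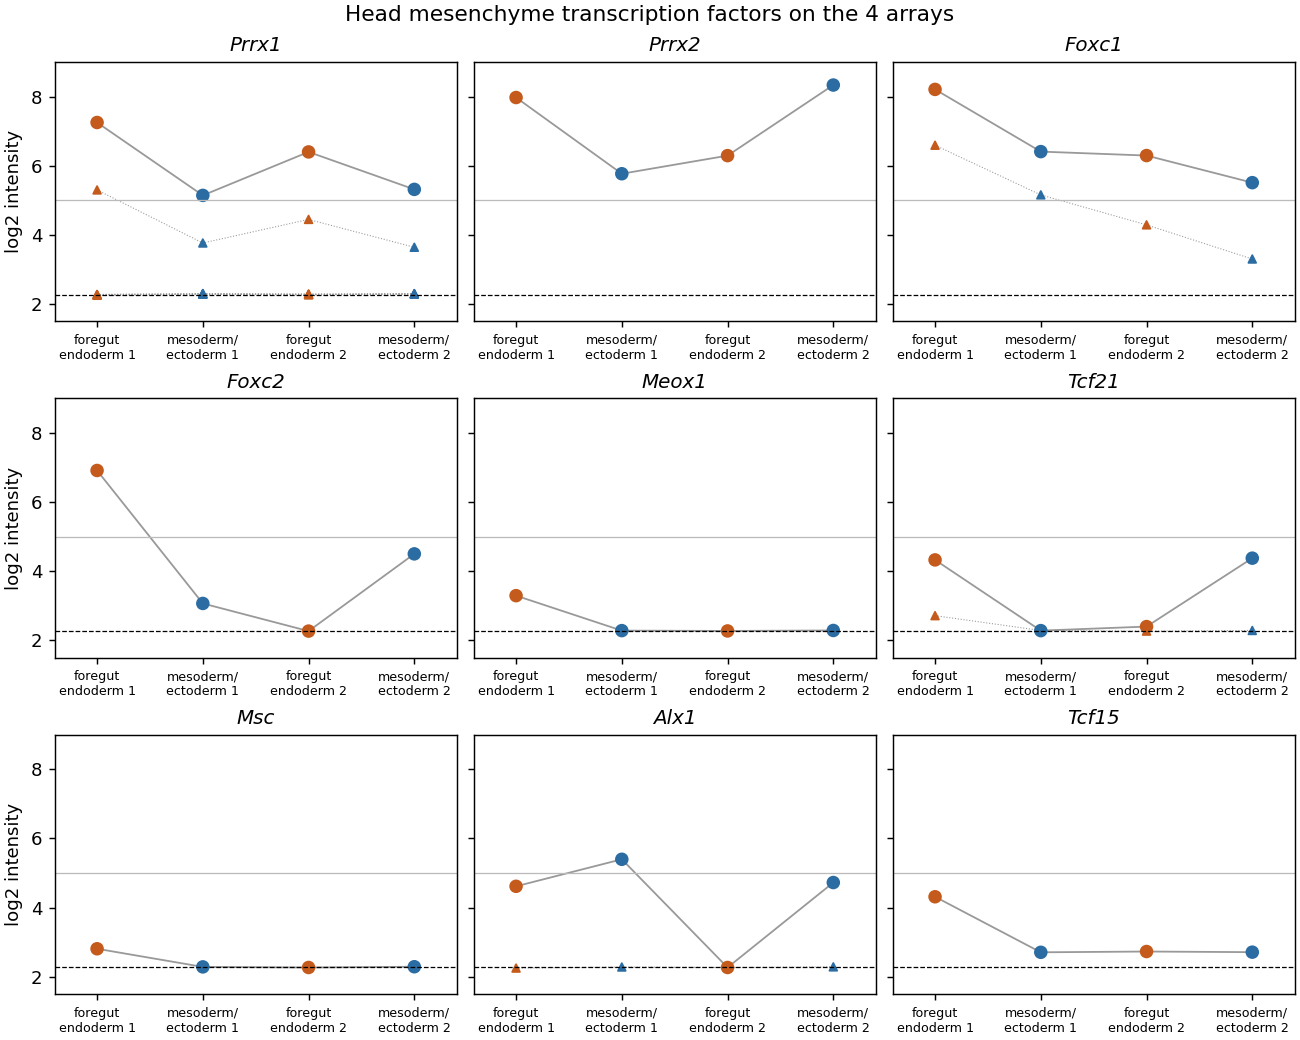
Log2 intensity (vertical axis) of every member probe set on the 4 arrays, with orange for foregut endoderm and blue for mesoderm/ectoderm. Circles mark the probe set with the highest mean of each gene, triangles its others, the grey line the filter at 5 and the dashed line the mean of the arrays' lowest values. Meox1, Msc and Tcf15 stand out in foregut endoderm 1 alone, while Prrx2 and Tcf21 are high in foregut endoderm 1 and mesoderm/ectoderm 2.

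Of the 13288 probe sets that passed the filter, limma called 0% between the tissues at an adjusted p under 0.05, and 0 of the 4 member probe sets. At an unadjusted p under 0.05, 395 of them were higher and 105 lower in endoderm, and 1 member probe set, of Prrx1, was among the higher. The replicates were therefore also read side by side without a test. Probe sets at least 2-fold higher in endoderm within both replicates made up 3.57% of those kept, and 1 of the 4 member probe sets was among them. At least 2-fold lower in both were 1.00% of all and 0 of the 4. At least 2-fold higher in replicate 1 and lower in replicate 2 were 1.60% of all and 1 of the 4. Median log2 differences of the 4 were 1.96 in replicate 1 and 0.89 in replicate 2, against 0.12 and 0.03 over all kept probe sets. Foxc1 contributes 2 of the 4, so these medians rest on 3 genes. Over all 17 member probe sets the medians were 1.01 in replicate 1 and -0.02 in replicate 2. Those of all probe sets without the filter were -0.03 and -0.02. In replicate 2, 5 of the 17 were higher in endoderm. Without the filter, 1 of 17 member probe sets was at least 2-fold higher in both, against 1.28% of all, and 3 of 17 switched from higher to lower, against 0.593%.

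**Figure D2:**
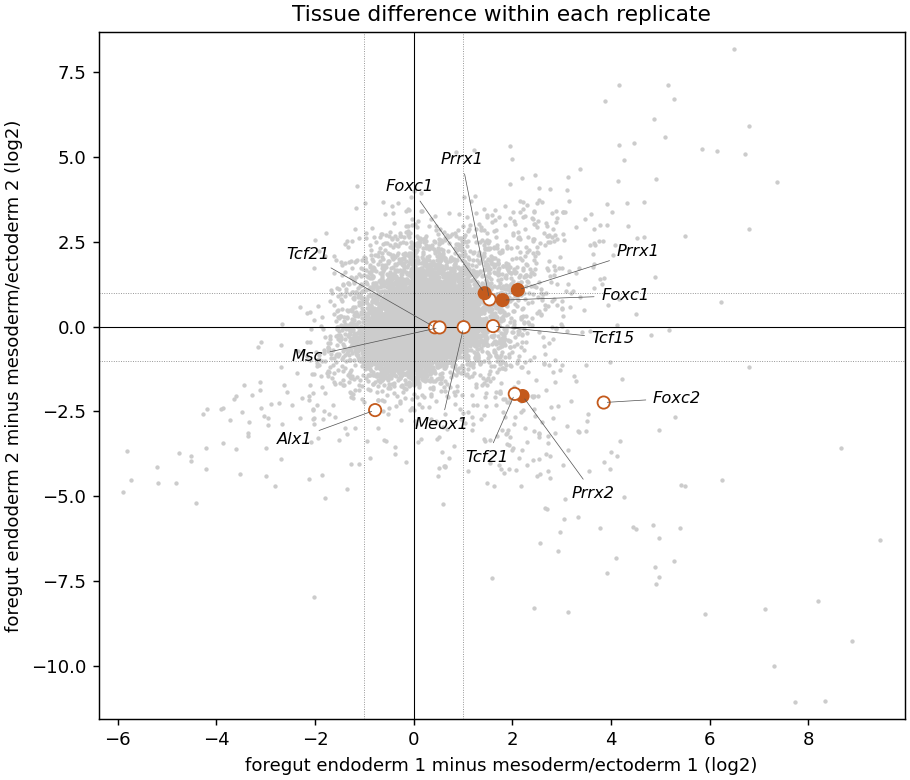
Log2 difference of foregut endoderm minus mesoderm/ectoderm in replicate 1 (horizontal) and replicate 2 (vertical). Grey points are the 13288 kept probe sets, filled circles the kept member probe sets, open circles those below the filter but off the floor on some array, and dotted lines 2-fold. Prrx1 and Foxc1 lie above 0 in both replicates, Prrx2, Tcf21 and Foxc2 change sign and Alx1 lies below 0 in both.

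The stretches before the start sites of the genes that passed the filter are shown, where the paralogs Prrx1 and Prrx2 differ in base composition. A link between base composition and the values was not tested. The sequences are the 250 bases before the start site, read 5′ to 3′ on the gene's strand, from RefSeq on GRCm38.p6. They lie at chr1:163313651-163313900 on the minus strand for Prrx1, chr2:30845117-30845366 on the plus strand for Prrx2 and chr13:31806396-31806645 on the plus strand for Foxc1. Capitals mark matches on either strand to the homeodomain core TAATTA, the GC box GGGCGG and the CCAAT box.
Prrx1: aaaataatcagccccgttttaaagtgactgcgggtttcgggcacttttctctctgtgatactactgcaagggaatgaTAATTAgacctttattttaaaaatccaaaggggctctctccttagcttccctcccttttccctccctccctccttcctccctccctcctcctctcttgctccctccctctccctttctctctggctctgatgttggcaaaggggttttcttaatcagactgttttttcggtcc
Prrx2: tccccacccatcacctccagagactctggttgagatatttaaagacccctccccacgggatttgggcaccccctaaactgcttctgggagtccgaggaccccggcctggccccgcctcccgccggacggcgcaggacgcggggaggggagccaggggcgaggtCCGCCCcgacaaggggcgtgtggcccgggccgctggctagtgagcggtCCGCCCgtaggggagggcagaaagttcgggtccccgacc
Foxc1: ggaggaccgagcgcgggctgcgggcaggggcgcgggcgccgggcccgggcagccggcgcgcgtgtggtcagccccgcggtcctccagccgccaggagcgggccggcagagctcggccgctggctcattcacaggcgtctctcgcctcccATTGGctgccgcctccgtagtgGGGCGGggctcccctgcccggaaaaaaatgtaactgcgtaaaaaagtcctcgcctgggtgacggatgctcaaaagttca

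These windows held 47.6% G and C with 4 CpG in Prrx1, 70.0% with 21 CpG in Prrx2 and 70.8% with 29 CpG in Foxc1. Over all 32851 windows the medians were 52.4% and 6 CpG. TAATTA was found in Prrx1, with its first base at -173 from the start site, and in 4.84% of all windows. GGGCGG was found in Prrx2 and Foxc1 and in 32.7% of all, and CCAAT in Foxc1 and in 33.8% of all. An E-box, CAGCTG, matched none of these windows and 13.0% of all. The TATA box, TATAAA, also matched none of them and 12.4% of all, and a forkhead sequence, GTAAACA, none of them and 3.17% of all. Tcf21, the remaining member with an entry, had 52.4% G and C with 5 CpG and no match to any of the 6. These are matches of letters and not measured sites. The motifs searched share no letters with each other in these windows.

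Prrx1, a homeobox factor of craniofacial and limb mesenchyme, was the member that differed in the same direction by at least 2-fold in both replicates. Its brightest probe set (1425528_at) read 7.25 (replicate 1) and 6.40 (replicate 2) in foregut endoderm on the log2 scale, against 5.14 and 5.31 in mesoderm/ectoderm. Both endoderm values lay above both others, as they did for 16.4% of all kept probe sets, and this was the case for 1 of the 4 kept member probe sets. The log2 difference was 2.11 in replicate 1 and 1.08 in replicate 2, or 4.32-fold and 2.12-fold. Its mean of 1.60 ± 0.44 (SE, n = 2 per tissue) did not pass limma's test (adjusted p = 1). Leaving out foregut endoderm 1 gave 1.17, and leaving out mesoderm/ectoderm 1 gave 1.51.

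A dimmer Prrx1 probe set (1439774_at), which did not pass the filter, read 5.30 and 4.45 in endoderm and 3.76 and 3.64 in mesoderm/ectoderm. It followed the brightest one in direction and order of the tissues, with differences of 1.54 and 0.81. The remaining 4 of the 6 Prrx1 probe sets were at the floor on all 4 arrays. Prrx1 signal in these samples thus rests on 2 of its 6 probe sets, and their probes were not mapped to transcripts here.

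Prrx2, the paralog of Prrx1, was measured by 1 probe set (1432331_a_at) and did not keep its direction. Log2 intensity was 7.97 in foregut endoderm 1, 5.77 in mesoderm/ectoderm 1, 6.29 in foregut endoderm 2 and 8.34 in mesoderm/ectoderm 2. The samples thus alternated, with the tissues overlapping. Endoderm was 4.62-fold higher in replicate 1 and 4.12-fold lower in replicate 2, log2 differences of 2.21 and -2.04. Their mean was 0.08 ± 1.17 (SE), with an adjusted p of 1 in limma, and leaving out an endoderm sample gave -0.76 (replicate 1) or 0.92 (replicate 2), and leaving out a mesoderm/ectoderm sample -1.20 or 1.37. The samples where Prrx2 was high, foregut endoderm 1 and mesoderm/ectoderm 2, also had the 2 highest medians of the heart genes, 8.46 and 12.68, and of the 7 kept endothelial genes, 6.54 and 6.53. Their part in the Prrx2 values was not tested. No difference between Prrx1 and Prrx2 was tested, since each replicate has 1 array per tissue.

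Foxc1, a forkhead factor of head and paraxial mesoderm, lay higher in endoderm in both replicates on both of its probe sets. The brighter one (1419486_at) read 8.21 and 6.29 in the endoderm samples, against 6.41 and 5.51 in mesoderm/ectoderm. The other (1419485_at) had 6.59 and 4.29 in endoderm and 5.16 and 3.30 in mesoderm/ectoderm, in the same order. Within a replicate the endoderm was the higher sample, but the tissues overlapped across replicates. The log2 differences were 1.80 and 0.78 on the brighter probe set and 1.44 and 0.99 on the other, so replicate 2 stayed under 2-fold on both.

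Neither probe set of Foxc1 passed limma's test, with means of 1.29 ± 0.83 and 1.21 ± 1.13 (SE) and adjusted p = 1 for both. Leaving out foregut endoderm 1 brought these means to 0.34 and 0.06, and leaving out foregut endoderm 2 to 2.25 and 2.37. They were 1.74 and 2.14 when mesoderm/ectoderm 1 was left out, and 0.84 and 0.29 when mesoderm/ectoderm 2 was. The step between replicates, fitted as replicate 2 minus replicate 1 beside a tissue term, was larger in size than that between tissues. It came to -2.08 ± 0.26 (SE) on the dimmer Foxc1 probe set and -1.41 ± 0.37 on the brighter, with limma's adjusted p of 0.0966 and 0.142. Prrx1 was at -0.34 ± 0.37 and Prrx2 at 0.44 ± 1.26 in that comparison (adjusted p of 0.581 and 0.835). It called 0% of the 13288 kept probe sets and 0 of the 4 members, with 2172 higher and 1824 lower in the second at an unadjusted p under 0.05. After quantile normalization limma called 878, and the dimmer Foxc1 probe set was among them at -2.02 (adjusted p = 0.0467).

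Foxc2, the paralog of Foxc1 in head and paraxial mesoderm, did not pass the filter, because only 1 array lay above 5. Its probe set (1416693_at) was at 6.92 in foregut endoderm 1, 3.07 in mesoderm/ectoderm 1, the floor (2.27) in foregut endoderm 2 and 4.50 in mesoderm/ectoderm 2. The endoderm samples thus held both the highest and the lowest value, and foregut endoderm 1 was at least 23.4-fold above foregut endoderm 2. Endoderm was 14.4-fold higher in replicate 1. In replicate 2 it was at least 4.39-fold lower. Fitted without a filter, the mean log2 difference was 0.81 ± 2.15 (SE; limma's adjusted p = 0.849).

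Tcf21, or capsulin, a helix-loop-helix factor of jaw muscle precursors and of the epicardium, showed the alternation seen for Prrx2 at a dim level. Its brighter probe set (1417447_at) was at 4.33 in foregut endoderm 1, the floor (2.28) in mesoderm/ectoderm 1, 2.40 in foregut endoderm 2 and 4.38 in mesoderm/ectoderm 2. Endoderm was at least 3.86-fold higher in replicate 1, and 3.95-fold lower in replicate 2 as measured. The value in foregut endoderm 2 lay 0.13 above its array's lowest, just outside the floor. The second probe set of Tcf21 (1458887_at) left the floor only in foregut endoderm 1, at 2.71. Both Tcf21 probe sets were below the filter.

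Tcf15, known as paraxis, Meox1 and Msc, or musculin, stood higher in foregut endoderm 1 than on the other 3 arrays, and none passed the filter. Tcf15, a helix-loop-helix factor that keeps somites epithelial (1449592_at), was at 4.31 there and at 2.71, 2.73 and 2.71 in mesoderm/ectoderm 1, foregut endoderm 2 and mesoderm/ectoderm 2. The lower 3 values spanned 0.023 and lay outside the floor, but only 0.43, 0.46 and 0.43 above their arrays' lowest values. The difference in replicate 1, 3.05-fold as measured, was thus taken against a near-floor value. Meox1, a homeobox factor of the somite (1417595_at), was at 3.29 in foregut endoderm 1 and at the floor (2.27 to 2.28) elsewhere, hence at least 1.88-fold higher in replicate 1. Msc, a repressor in jaw muscle precursors (1418417_at), was at 2.81 there and at the floor (2.27 to 2.29) elsewhere, at least 1.35-fold higher. In replicate 2 Meox1 and Msc were at the floor in both samples, and Tcf15 differed by 0.018.

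Alx1, an aristaless-like homeobox factor of the mesenchyme around the forebrain, was the member with the opposite direction. Its brighter probe set (1435022_at) was at 5.40 and 4.72 in mesoderm/ectoderm 1 and 2, at 4.62 in foregut endoderm 1 and at the floor (2.27) in foregut endoderm 2. Both endoderm values lay below both others. The difference was -0.78 in replicate 1, under 2-fold, and endoderm was at least 5.13-fold lower in replicate 2. With 1 array above 5 Alx1 did not pass the filter. Without a filter its mean was -1.62 ± 1.08 (SE; limma's adjusted p = 0.473), and no array lifted the other Alx1 probe set (1456454_at) off the floor.

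The surrounding genes were read from lists chosen with earlier results of these data known. Of 20 general mesenchyme genes 14 passed the filter, and limma called 0 of them. Their median log2 intensity was 9.02 in foregut endoderm 1, 7.65 in mesoderm/ectoderm 1, 5.87 in foregut endoderm 2 and 7.69 in mesoderm/ectoderm 2, and 10 of the 14 were highest in foregut endoderm 1. At least 2-fold higher in replicate 1 and lower in replicate 2 were 7 of the 14, and 1 was higher in both. Col3a1, a fibrillar collagen, differed by 3.54 and -4.26, Twist1, a helix-loop-helix factor of mesenchyme and crest, by 2.17 and -4.71, and Pdgfra, a growth factor receptor of mesenchyme, by 1.96 and -3.26. Fn1, the matrix protein fibronectin, was higher in endoderm by 2.97 and 2.05.

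Neural crest genes lay lower in endoderm at the median of either replicate. Of 12 listed, 10 passed the filter, with 3 highest in foregut endoderm 1 and 4 in mesoderm/ectoderm 2, and limma called 0. Their median differences were -0.29 in replicate 1 and -2.36 in replicate 2. Pax3, a paired-box factor of crest and dorsal neural tube, differed by -4.41 and -5.21, and Tfap2a, an AP-2 factor of crest and ectoderm, by -2.13 and -4.49. Crabp1, a retinoic acid binding protein, differed by 0.83 and -3.51. Pax3 and Tfap2a were the 2 of the 10 at least 2-fold lower in both replicates. Another 2, Twist1 and Snai2, switched from at least 2-fold higher to lower, and Erbb3 was higher in endoderm by 0.55 and 1.60. Alx1 was lower in endoderm in both replicates, a direction not particular to crest genes. The neural plate genes had it too, with medians of -2.89 and -3.01.

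Of 11 head and cranial mesoderm genes, which include Tcf21 and Msc, 9 had a probe set and 4 passed the filter, none called by limma. Isl1, a homeobox factor of pharyngeal mesoderm and endoderm, differed by 4.53 and 2.63, and Tbx1, a T-box factor of the same tissues, by 3.03 and 3.39. Lhx2, a homeobox factor of head muscle precursors and of the eye field, differed by -2.81 in replicate 1 and, being at the floor in foregut endoderm 2, by -4.61 or more in size in replicate 2. Ebf3, a helix-loop-helix factor, was at 0.93 and -0.26. Of 16 somite and paraxial genes, which include Tcf15 and Meox1, 15 had a probe set, 3 passed and limma called 0. Pax9, a factor of the sclerotome and of pharyngeal endoderm, was at the floor in both mesoderm/ectoderm samples and higher in endoderm by at least 6.43 and 8.11. Aldh1a2, which makes retinoic acid, differed by -1.06 and -1.74, and Mest, an imprinted gene of mesoderm, by -0.50 and -1.69. Of the 15, 3 were at the floor on every array, Uncx, Tbx6 and Hes7.

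Close relatives of the members were largely dim. Of 12 listed, 11 had a probe set and 1 passed the filter, Foxd1, a forkhead factor of head mesenchyme and forebrain. Foxd1 read 9.01 and 4.18 in the endoderm samples against 8.30 and 8.04 in mesoderm/ectoderm, and did not pass limma's test. Alx4, Mesp1 and Foxl1 were at the floor on all arrays. Meox2, the paralog of Meox1, was at 3.49 in foregut endoderm 1 and between 2.27 and 2.28 on the others, the same pattern as Meox1.

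Signals and targets linked to the members formed a list of 20, of which 13 passed the filter and limma called 0. At least 2-fold higher in endoderm in both replicates were 4, and 2 were lower. Tgfb2, a transforming growth factor, differed by 6.80 and 2.87, the morphogen gene Shh by 3.15 and 3.71, its receptor and target Ptch1 by 2.56 and 2.45, and Wnt5a by 2.12 and 1.29. Fgf8 and Fgf10 were at the floor on all arrays.

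**Figure D3:**
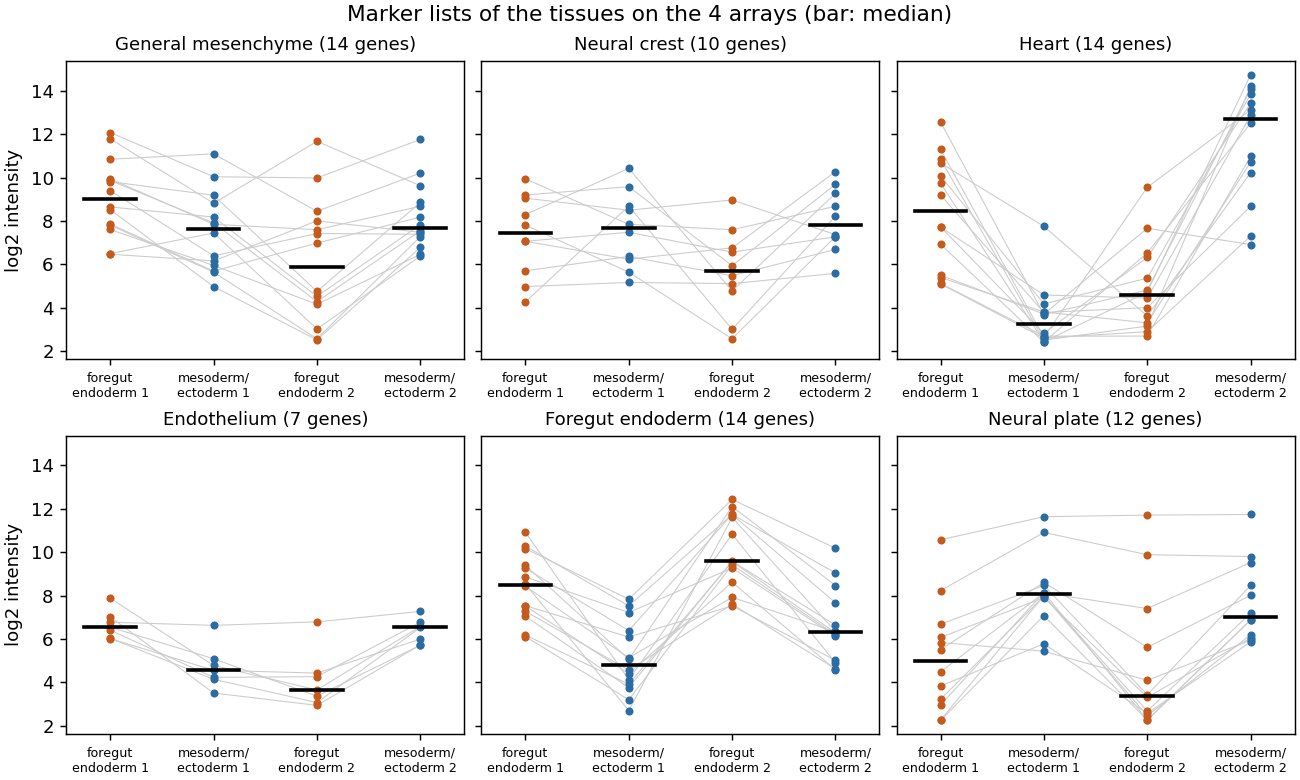
Log2 intensity of the kept genes of 6 marker lists on the 4 arrays, with a point per gene, a grey line joining each gene's values and a black bar for the median. Heart medians were 8.46 and 12.68 in foregut endoderm 1 and mesoderm/ectoderm 2 against 3.26 and 4.58 on the others, and general mesenchyme was highest in foregut endoderm 1 at 9.02.

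Foregut endoderm 1, where 6 of the 9 members were highest by their brightest probe set, also had heart, endothelial and general mesenchyme genes at high levels. Meox1 and Msc, counted among the 6, were off the floor only on that array. Of 14 kept heart genes 13 switched, from at least 2-fold higher in the endoderm of replicate 1 to at least 2-fold lower in that of replicate 2, as were 6 of 7 kept endothelial genes out of 14 listed. Tnnt2, cardiac troponin T, differed by 8.33 and -11.05, Actc1, cardiac actin, by 8.87 and -9.26, and Erg, an endothelial factor, by 3.50 and -2.78. Summed endothelial intensity ranged from 234.5 to 1001 in endoderm and from 295.0 to 737 in mesoderm/ectoderm, and Pecam1 was at the floor on every array. Their part in the member values was not tested. In foregut endoderm 2 the heart median was 4.58 and the endothelial median 3.65, against 12.68 and 6.53 in mesoderm/ectoderm 2. Prrx1 was 2.12-fold and Foxc1 1.72-fold higher in foregut endoderm 2 than in mesoderm/ectoderm 2. Whether the tissue content of either sample shaped these differences was not tested.

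Of 12 neural plate genes 12 passed the filter and 9 were at least 2-fold lower in endoderm in both replicates, with medians of -2.89 and -3.01, among them Fezf1, which differed by -4.51 in replicate 2 and, at the floor in foregut endoderm 1, by -5.64 or more in size in replicate 1. Of 8 surface ectoderm genes 2 passed, Tfap2c (-3.36 and -3.21) and Dlx5 (-0.73 and -2.16). All 14 kept foregut endoderm genes passed 2-fold in favour of endoderm in either replicate, and limma called 0 in each of these lists.

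The genes whose pattern over the 4 arrays was closest to a member were found among 7796 other genes, each by its brightest probe set where that was kept, after centring each on its own mean. Closeness was the root mean square difference of the 4 log2 values, and with only 4 points many genes lie close to any pattern. Closest to Prrx1 were Col4a1, a collagen IV chain, at 0.07, Lhfpl2, a membrane protein, at 0.15, and Itgb1, an integrin chain, at 0.17. Closest to Prrx2 were Rbm24, an RNA-binding protein, at 0.13, Asb4, an ankyrin repeat protein, at 0.15, and Tek, an angiopoietin receptor, at 0.20. Closest to Foxc1 were Rbm15b at 0.17, the growth factor receptor Igf1r at 0.19 and Frmd6 at 0.20. Between members the difference was 0.56 for Prrx1 and Foxc1, 1.17 for Prrx1 and Prrx2 and 1.37 for Prrx2 and Foxc1. Prrx2 was thus further from both than they were from each other.

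**Figure D4:**
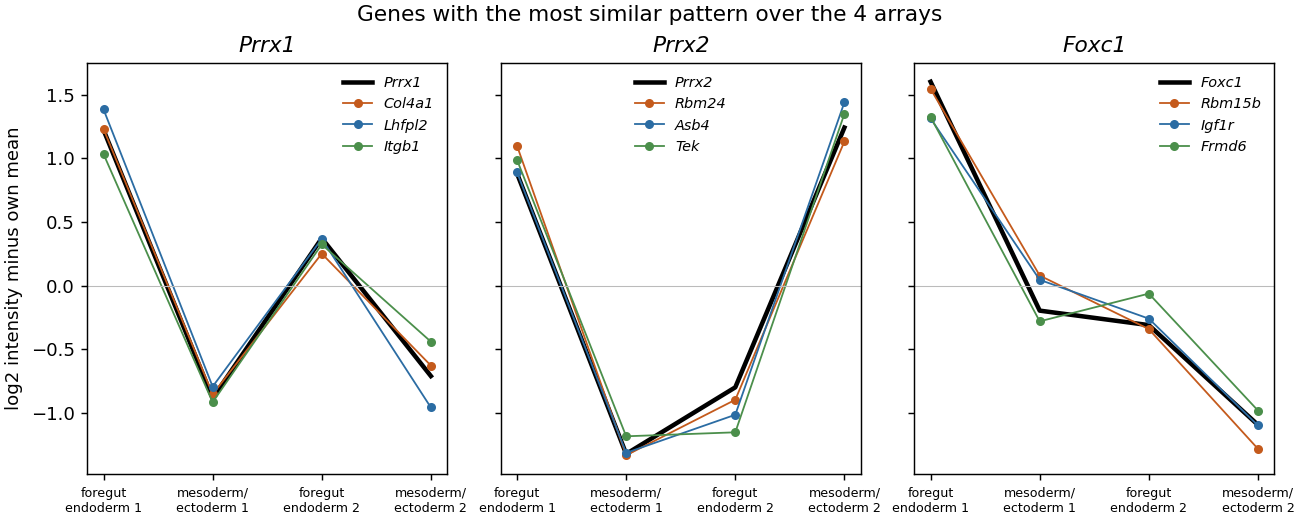
Log2 intensity minus the gene's own mean (vertical axis) on the 4 arrays for Prrx1, Prrx2 and Foxc1 (black) and the 3 genes closest to each (colours). Prrx1 and Foxc1 are highest in foregut endoderm 1, and Prrx2 and the genes closest to it are high in foregut endoderm 1 and mesoderm/ectoderm 2.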

How the data were processed

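Deposited intensities, 1 for each probe set, had been normalized by the authors (GC-RMA run in GenePattern, as the design text states). The submitters' processing notes name RMA. Versions and parameters are not given in the sources used. They were read as linear, with a median between 5.71 and 6.14 per array, and log2 was taken here. GC-RMA sets many dim probe sets to nearly 1 value, so folds against it are bounds, computed against the floor plus 0.1. The 64 control probe sets were left out, and 13288 of 45037 passed the filter. The number of arrays limits the precision. Symbols came from GEO's platform annotation, and all 17 member probe sets matched RefSeq symbols by gene identifier.

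The tissue comparison used limma 3.58.1 (R 4.3.3), with two-sided tests from lmFit and eBayes and no replicate term. P-values were adjusted by Benjamini-Hochberg over all kept probe sets. The code was checked on simulated data with known changes, which does not show the power of the test on these 4 arrays. Members and lists were chosen with earlier results of these data known. Named context genes are up to 4 kept genes per list with the largest mean absolute difference; others were chosen after their values were seen. Numbers pair the samples through the shared way of dissection, per the labels' protocols; replicate deviations of both tissues correlated at 0.565 across probe sets. Alternatives were a replicate block, other filters, quantile normalization, median centring, a pseudocount of 16 and leaving out each array.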

Additional observations from a re-analysis of the deposited data

Results flagged for a closer look

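Of 6 member probe sets with opposite signs of the tissue difference in the replicates, 3 differed by at least 2-fold both ways. Without the filter, 0.593% of all probe sets switched from higher to lower like this. Meox1, Msc and the second Tcf21 probe set (1458887_at) made up the rest, at the floor in both samples of replicate 2. Their values there, -0.0135, -0.0215 and -0.0179, thus give no direction, and the median of all probe sets was also -0.0179. The change between replicates was not tested, since 4 arrays leave no residual for it. Replicate 1 minus replicate 2 of the log2 tissue difference was 4.25 for Prrx2 (1432331_a_at), 6.09 for Foxc2 (1416693_at) and 4.03 for Tcf21 (1417447_at). These are differences of the values as measured, and Foxc2 and Tcf21 were each at the floor on 1 array. With that array set to the floor plus 0.1 they were 5.99 and 3.93. Tcf21 in foregut endoderm 2 was also dim, 0.13 above that array's lowest value.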

How the results depend on the processing

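Prrx1 and both Foxc1 probe sets kept a positive mean difference under every alternative in which they were fitted. With the filter raised to 6, the dimmer Foxc1 probe set was not fitted. The mean difference of Prrx2 turned to -0.043 with quantile normalization and -0.10 with median centring, and ranged from -1.20 to 1.37 with each array left out. Leave-one-out ranges were 1.17 to 2.02 for Prrx1, and 0.34 to 2.25 and 0.06 to 2.37 for the brighter and dimmer Foxc1 probe sets. Counted over member probe sets, agreement of both replicates beyond 2-fold was found for 1, which became 0 with quantile normalization, median centring, a pseudocount of 16 and a 4-fold limit, and 1 to 3 with an array left out. With an array left out the other array of its tissue served in both replicates, so the 3 without foregut endoderm 2 set foregut endoderm 1 against both mesoderm/ectoderm arrays. Limma called 0 probe sets between tissues under every alternative. With the replicate block the differences kept their size and the SE became 0.37 for Prrx1 (difference 1.60, adjusted p = 0.494) and, for the brighter and dimmer Foxc1 probe sets, 0.37 and 0.26 (adjusted p of 0.499 and 0.484). Member probe sets at an unadjusted p under 0.05 in limma went from 1 to 3, and the block changed no call. Over all kept probe sets that count also rose, from 395 to 968 higher in endoderm and from 105 to 358 lower. Between replicates 878 were called with quantile normalization, against 0. The median of all kept probe sets moved from 0.10 to -0.02 with quantile normalization and to -0.08 with median centring. Floor counts were 5, or 6 with a margin of 0.5.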

Other observations

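Some other mesenchyme and paraxial genes, picked after their values were seen, were likewise highest in foregut endoderm 1, with the other 3 arrays close together. Foxd2, a forkhead factor, was at 7.10 there and between 4.36 and 4.41 on the other arrays. Ebf2, a helix-loop-helix factor, was at 5.01 and between 2.27 and 2.31 elsewhere. Tbx18, a T-box factor of somites and epicardium, was at 4.64 and between 2.34 and 2.51 elsewhere, and Lum, a matrix proteoglycan, at 4.64 and between 2.41 and 2.60. None passed the filter, which asks for 2 arrays above 5. The pattern was not general in the lists they came from. Of the kept genes there, 10 of 14 general mesenchyme genes were highest in foregut endoderm 1. The same held for 2 of 4 head and cranial mesoderm genes and 0 of 3 somite and paraxial genes. Dll1, a paraxial gene also below the filter, was highest in mesoderm/ectoderm 1 at 6.33.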
